A study of Mus musculus with 12 samples.

Results

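Expression of 10 genes of the hyaluronan matrix was followed in cumulus cells of the mouse, which descend from granulosa cells and surround the oocyte. The genes were looked up by symbol in the array's annotation, and all 10 were measured, among 19938 named genes in all. Each had 1 probe set. The members are the hyaluronan synthases Has2 and Has1, the matrix linkers Tnfaip6, Ptx3, Itih2 and Itih3, the proteoglycan Vcan and link protein Hapln1, and the hyaluronan-binding proteins Cd44 and Hmmr.

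The data came from 12 microarrays in 3 groups of 4. Complexes of oocyte and cumulus cells came from 129SV females, 21 to 26 days old, that had received 5 IU of equine chorionic gonadotropin 44 h earlier. All groups share that priming, and collection medium held the phosphodiesterase inhibitor cilostamide at 1 µM. Whole complexes, with their oocytes inside, were cultured for 8 h, 20 to a drop of 50 µl. For all groups the labels also list glucose at 11 mM and cysteamine at 100 µM. The FSH/EGF group had follicle stimulating hormone at 50 mIU/ml and epidermal growth factor at 10 ng/ml, in 293H control medium. The GDF9 group had growth differentiation factor 9, an oocyte-secreted factor of the TGF-beta family, at 20 ng/ml. The control group had 293H control medium at 0.125% by volume. The labels name that medium for the FSH/EGF and control groups and not in the GDF9 titles, so comparisons with GDF9 may also differ in it. Oocytes were stripped off after culture, and each array held RNA pooled from 2 of 8 biological replicates, so the spread reported is between pools.

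Before ovulation, cumulus cells spin a soft, sticky matrix around the oocyte, a process called cumulus expansion. Its backbone is hyaluronan, a long sugar polymer that hyaluronan synthase extrudes through the plasma membrane. The protein TSG-6, made by Tnfaip6, moves heavy chains of the plasma protein inter-alpha-inhibitor onto the polymer, and the multimeric pentraxin made by Ptx3 binds those chains and ties strands together. In mice, loss of Tnfaip6 or Ptx3 leaves the matrix unstable. Gonadotropin and EGF-like signals start expansion, and mouse cumulus cells also need factors from the oocyte for it.

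Array values are on a log2 scale, so a step of 1 is 2-fold. Medians of single arrays lay between 5.41 and 5.53, and arrays within a group correlated at 0.971 to 0.995. Control array 1 had the lowest estimated array weight, 0.269 against 0.485 to 2.04 for the others. Control array 4 stood apart by oocyte transcripts: the mean of 14 oocyte markers was 4.77 to 5.16 with FSH/EGF, 4.76 to 4.93 with GDF9, 6.10 on control array 4 and 4.90 to 5.05 on the other controls. The mean of 12 cumulus and granulosa markers was 7.98 to 8.16 with FSH/EGF, 9.10 to 9.23 with GDF9 and 9.00 to 9.14 in controls. These include Fshr, the FSH receptor gene, at means of 5.26, 8.47 and 8.40 in that order of groups, the largest fall of the list. With FSH/EGF 8 of the 12 markers were lower than in controls and 1, Inhba, was higher (limma adjusted p under 0.05). Of all rows 12.5% were lower and 16.5% higher.

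FSH/EGF minus control compared the matrix genes after stimulation that brings on expansion with unstimulated culture. Has2, Tnfaip6, Ptx3, Vcan, Cd44 and Hmmr rose, and Itih2 fell, so that 7 of 10 members were past the threshold, an adjusted p under 0.05 by limma. Over all 35399 rows of the array 29.0% were past it, 16.5% higher and 12.5% lower. The groups' arrays did not overlap for 6 members higher and 1 lower, where 33.2% of all rows did not overlap, 17.0% higher and 16.2% lower. At an unadjusted p under 0.05 there were 7 members and 40.5% of all rows. The median log2 difference was 1.07 over the 10 members and -0.06 over all rows. In bulk RNA, more cells of a type and more RNA per cell cannot be told apart.

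**Figure D1:**
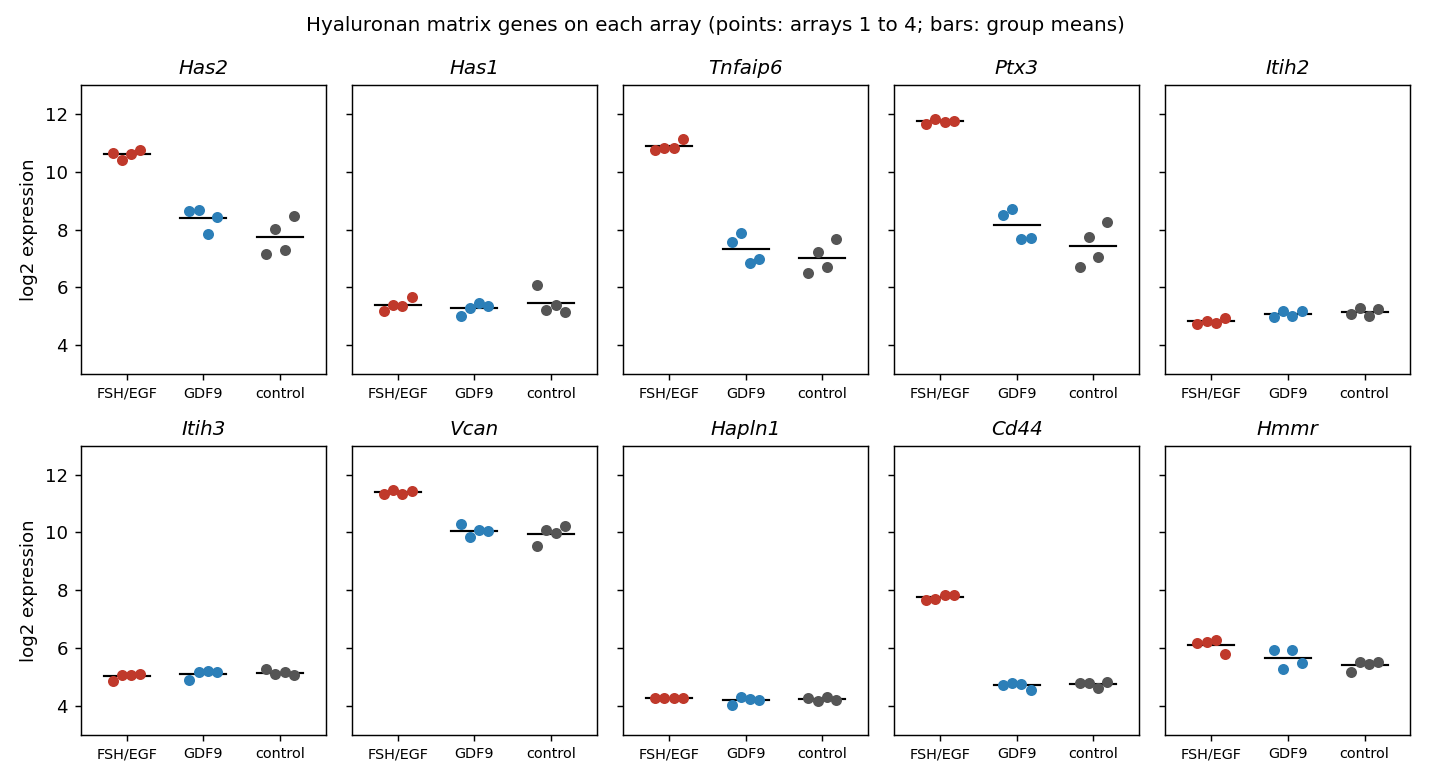
Log2 expression (vertical axis) of each member on every array, for the FSH/EGF, GDF9 and control groups; points are arrays and bars are group means. Ptx3 lies between 11.66 and 11.84 on FSH/EGF arrays and between 6.70 and 8.27 on control arrays, while Hapln1 stays between 4.02 and 4.32 on all arrays.

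Has2 encodes the hyaluronan synthase of expanding cumulus. Its log2 level was 10.66, 10.41, 10.62 and 10.76 on FSH/EGF arrays 1 to 4 and 8.64, 8.68, 7.83 and 8.43 on GDF9 arrays, against 7.15, 8.02, 7.30 and 8.46 on control arrays. All 4 FSH/EGF arrays lay above all 8 others, whereas GDF9 and control arrays overlapped. Has2 rose by 2.88 ± 0.26 on the log2 scale with FSH/EGF (SE, n = 4 and 4; 7.36-fold, 95% interval 4.94 to 11.0; limma adjusted p = 3.79e-06).

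Has1, the gene of another hyaluronan synthase, gave a low signal, brighter than 48.8% of rows in controls. It stood at 5.17, 5.39, 5.37 and 5.68 on FSH/EGF arrays, 5.00, 5.28, 5.45 and 5.34 on GDF9 arrays, and 6.07, 5.22, 5.40 and 5.14 on control arrays. The groups overlapped throughout, and the highest value was on control array 1. The difference was -0.05 ± 0.19 (SE; 95% interval -0.46 to 0.35; limma adjusted p = 0.855), and its sign changed under 7 of 24 alternative settings.

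Tnfaip6 and Ptx3, the genes of the linkers that the cumulus cells make themselves, had the 2 largest rises among the members. Tnfaip6 was at 10.76, 10.81, 10.81 and 11.13 on FSH/EGF arrays, 7.56, 7.89, 6.83 and 6.98 on GDF9 arrays, and 6.48, 7.22, 6.70 and 7.66 on control arrays. It rose by 3.86 ± 0.27 with FSH/EGF (14.5-fold, 95% interval 9.74 to 21.7; limma adjusted p = 2.72e-07). FSH/EGF arrays stood clear of the rest, and the spread within GDF9 and control groups exceeded 1 log2 unit.

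Ptx3 was at 11.66, 11.84, 11.70 and 11.75 on FSH/EGF arrays, 8.49, 8.70, 7.66 and 7.72 on GDF9 arrays, and 6.70, 7.73, 7.03 and 8.27 on control arrays. It rose by 4.30 ± 0.31 (19.8-fold, 95% interval 12.3 to 31.7; limma adjusted p = 4.68e-07). This was the 19th largest difference in size among the 35399 rows, with Tnfaip6 at rank 36, Cd44 at 93 and Has2 at 115.

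Itih2 and Itih3 encode heavy chains of inter-alpha-inhibitor, which the liver secretes into plasma and which reach the follicle from there. Itih2 was at 4.75, 4.84, 4.76 and 4.94 on FSH/EGF arrays, 4.97, 5.19, 5.01 and 5.18 on GDF9 arrays, and 5.09, 5.28, 5.01 and 5.25 on control arrays. It fell by 0.34 ± 0.08 (0.792 of control; limma adjusted p = 0.00943), with all FSH/EGF arrays below all others. The 3540 rows of like mean level had a median difference of -0.13, 12.3% of them were called lower, and 7.06% lay below Itih2. With FSH/EGF array 3 and control arrays 1 and 4 left out the difference was -0.30 (adjusted p = 0.102).

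Itih3 showed no such separation. Its levels were 4.85, 5.08, 5.05 and 5.09 on FSH/EGF arrays, 4.89, 5.16, 5.22 and 5.16 on GDF9 arrays, and 5.29, 5.09, 5.16 and 5.08 on control arrays. Its difference was -0.13 ± 0.09 (95% interval -0.33 to 0.06; limma adjusted p = 0.283). Among 8 measured genes of liver-type plasma proteins, 0 rose and 3 fell, against 16.5% and 12.5% of all rows. The fallers were Apoa1 (-0.82), Ambp (-0.34) and Ttr (-0.27), with control means of 8.66, 5.29 and 5.12. These are RNA levels, which do not measure protein that arrives from plasma. The mean of that list was 5.13 to 5.21 with FSH/EGF, 5.29 to 5.45 with GDF9 and 5.31 to 5.59 in controls, and its part in the fall of Itih2 was not tested.

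Versican, the product of Vcan, is a large chondroitin sulfate proteoglycan whose head binds hyaluronan. Vcan was already bright, above 96.5% of rows in controls. It reached 11.32, 11.47, 11.32 and 11.42 on FSH/EGF arrays, with GDF9 arrays at 10.30, 9.84, 10.09 and 10.04 and control arrays at 9.54, 10.08, 9.99 and 10.21. Its rise was 1.43 ± 0.13 (2.70-fold, 95% interval 2.20 to 3.30; limma adjusted p = 4.65e-06), all FSH/EGF arrays being above the others.

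Hapln1 encodes the link protein that locks proteoglycan heads to hyaluronan, and its product is known from granulosa and cumulus matrix. Here its signal was dim in every group, at 4.27, 4.28, 4.27 and 4.26 on FSH/EGF arrays, 4.02, 4.31, 4.23 and 4.20 on GDF9 arrays, and 4.28, 4.17, 4.32 and 4.19 on control arrays. In controls it was brighter than only 17.6% of rows. The difference was 0.03 ± 0.07 (95% interval -0.12 to 0.19; limma adjusted p = 0.766). Signal over background was not analysed here, so a change below the array's reach cannot be seen.

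Cd44 encodes a cell surface receptor for hyaluronan. It was at 7.67, 7.71, 7.83 and 7.82 on FSH/EGF arrays, 4.71, 4.80, 4.77 and 4.57 on GDF9 arrays, and 4.79, 4.80, 4.62 and 4.84 on control arrays. Cd44 rose 7.98-fold (95% interval 7.10 to 8.97, on the log2 scale 2.83 to 3.17; limma adjusted p = 6.96e-11). It had the smallest adjusted p of the members, and the arrays of each group lay within 0.23 log2 units of each other. Since its control level was brighter than only 30.7% of rows, the fold is approximate.

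Hmmr encodes RHAMM, a hyaluronan-binding protein that is also a component of the mitotic spindle. It was at 6.16, 6.22, 6.27 and 5.81 on FSH/EGF arrays, 5.94, 5.28, 5.93 and 5.49 on GDF9 arrays, and 5.17, 5.53, 5.44 and 5.52 on control arrays. Its rise with FSH/EGF was 0.70 ± 0.16 (1.63-fold, 95% interval 1.28 to 2.06; limma adjusted p = 0.00491). FSH/EGF arrays lay above the control arrays but overlapped with the GDF9 arrays. With FSH/EGF array 3 and control arrays 1 and 4 left out it was at 0.58 (adjusted p = 0.0838).

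**Figure D2:**
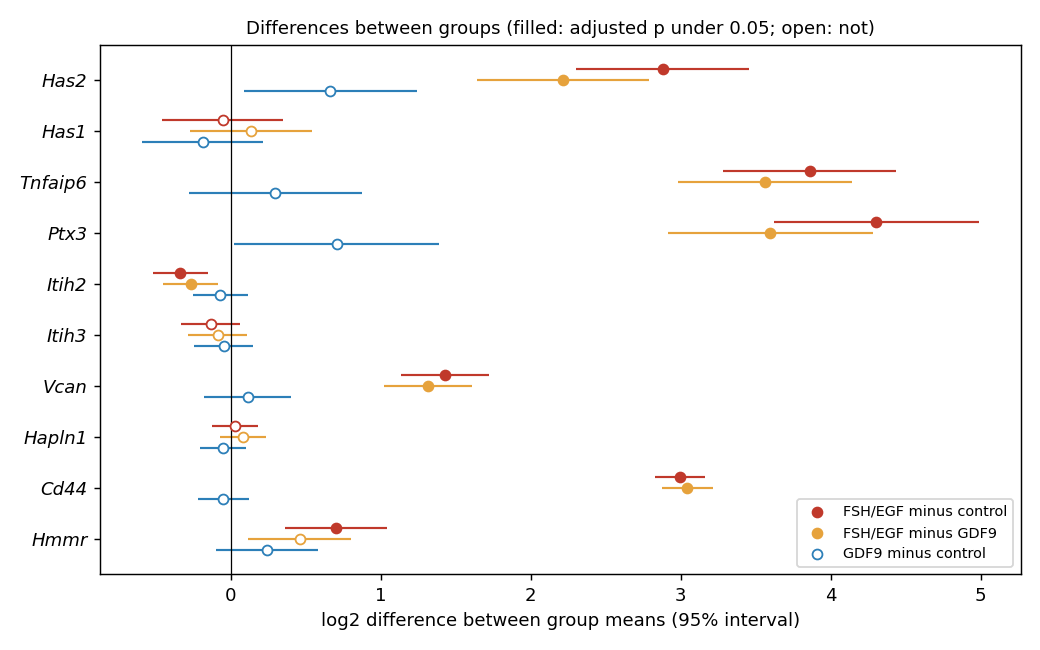
Log2 differences between group means (horizontal axis) with 95% intervals for the 10 members (rows) in 3 comparisons; filled points passed an adjusted p of 0.05 and open points did not. Ptx3, Tnfaip6, Cd44 and Has2 lie at 2.88 or more for FSH/EGF minus control, and all 10 points of GDF9 minus control are open.

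GDF9 minus control compared the oocyte factor, added without FSH or EGF, with control medium. Of the 10 members 0 passed limma's threshold, as did 0% of all rows, among which 0.847 was the lowest adjusted p. With the spread pooled over all 3 groups, Has2 and Ptx3 had an unadjusted p under 0.05, 2 of 10 members, as had 4.49% of all rows. Arrays of the 2 groups overlapped for all 10 members, and 1.98% of all rows did not overlap, 0.989% higher and 0.994% lower. The median log2 difference was 0.03 over the members and -0.01 over all rows.

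Has2 averaged 8.40 ± 0.39 with GDF9 and 7.73 ± 0.61 in controls (SD, n = 4 each). The difference was 0.67 ± 0.26 (SE; 1.59-fold, 95% interval 1.06 to 2.36; limma adjusted p = 0.971). Ptx3 averaged 8.14 ± 0.53 and 7.43 ± 0.70 in the same order, a difference of 0.71 ± 0.31 (1.63-fold, 95% interval 1.02 to 2.62; limma adjusted p = 0.971). In size these 2 differences ranked 53 and 42 among all rows, which had few large differences. Their intervals used a spread pooled with the FSH/EGF arrays, which varied less for both genes. With only GDF9 and control arrays fitted, the SE was 0.30 for Has2 and 0.36 for Ptx3. The intervals given, both just above 1, do not carry that wider spread.

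Tnfaip6 was at 0.30 ± 0.27 for GDF9 minus control (95% interval -0.28 to 0.88) and Hmmr at 0.24 ± 0.16 (-0.10 to 0.59). These differences moved with single arrays. Without control array 1 they were 0.47 for Has2, 0.46 for Ptx3, 0.12 for Tnfaip6 and 0.16 for Hmmr, and without control array 4 they were 0.91, 0.99, 0.51 and 0.28. Over the 24 alternatives Has2 ran from 0.44 to 0.91, Ptx3 from 0.40 to 0.99, Tnfaip6 from 0.04 to 0.51 and Hmmr from 0.15 to 0.37, none past the threshold. For Cd44 the interval was tight, from -0.22 to 0.12 around -0.05, so that a rise in signal beyond 1.09-fold lies outside it. The control level of Cd44 was brighter than only 30.7% of rows, so this bounds the array signal and not the change in RNA. Vcan had an interval from -0.18 to 0.40. The synthase Has1 was at -0.19 ± 0.19, and Itih2, Itih3 and Hapln1 were at -0.07, -0.05 and -0.05.

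FSH/EGF minus GDF9 set the 2 treatments against each other directly. It shares its FSH/EGF arrays with the first comparison and its GDF9 arrays with the second. Here 5 members rose and 1 fell, 6 of 10, where 22.5% of all rows passed, 13.6% higher and 8.96% lower. The same 5 and 1 did not overlap, against 26.8% of all rows, 14.9% higher and 11.9% lower. An unadjusted p under 0.05 was seen for 7 members and 32.6% of all rows. Ptx3 was 3.60 ± 0.31 higher with FSH/EGF than with GDF9 (12.1-fold; limma adjusted p = 2.61e-06) and Tnfaip6 3.56 ± 0.27 (11.8-fold). Cd44 was 3.05 ± 0.08 higher, Has2 2.22 ± 0.26 (4.64-fold, 95% interval 3.12 to 6.92) and Vcan 1.32 ± 0.13.

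Itih2 and Hmmr stood near the threshold in this comparison. Itih2 was lower by -0.27 ± 0.08 (limma adjusted p = 0.0382), and that call was lost under 8 of 23 alternatives. These were leaving out GDF9 array 2 (adjusted p = 0.1) or 4 (0.1), or FSH/EGF array 1 (0.106), 2 (0.0718) or 3 (0.101). Both renewed scalings, and leaving out control arrays 1 and 4 with FSH/EGF array 3, ended it too. Hmmr was 0.46 ± 0.16 higher (limma adjusted p = 0.0551) and came under the threshold in 7 of 24 alternatives, among them leaving out control array 1 (0.0433), GDF9 array 1 (0.0284) or 3 (0.0346), or FSH/EGF array 4 (0.0272).

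The spread within groups was smaller with FSH/EGF than in the other groups for Ptx3, Has2 and Tnfaip6, and about alike in all groups for Cd44. For Ptx3 the SD over 4 arrays was 0.08 with FSH/EGF, 0.53 with GDF9 and 0.70 in controls. It was above the SD of 28.4% of rows with FSH/EGF, 97.7% with GDF9 and 98.6% in controls. For Has2 the SD was 0.15, 0.39 and 0.61 in the same order of groups, and for Tnfaip6 0.17, 0.50 and 0.53. With FSH/EGF the SD of Has2 was still above that of 69.5% of rows and that of Tnfaip6 above 76.7%. For Cd44 the SD was 0.08, 0.10 and 0.10. The median SD over all rows was 0.11 with FSH/EGF and 0.15 in each of the other groups.

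Has2, Tnfaip6 and Ptx3 had the same order of arrays within the GDF9 group and within the control group. In controls all 3 were lowest on array 1, followed by arrays 3, 2 and 4. With GDF9 all 3 were lowest on array 3, followed by arrays 4, 1 and 2. No such common order was seen with FSH/EGF, where array 4 was highest for Has2 and Tnfaip6 and array 2 for Ptx3.

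**Figure D3:**
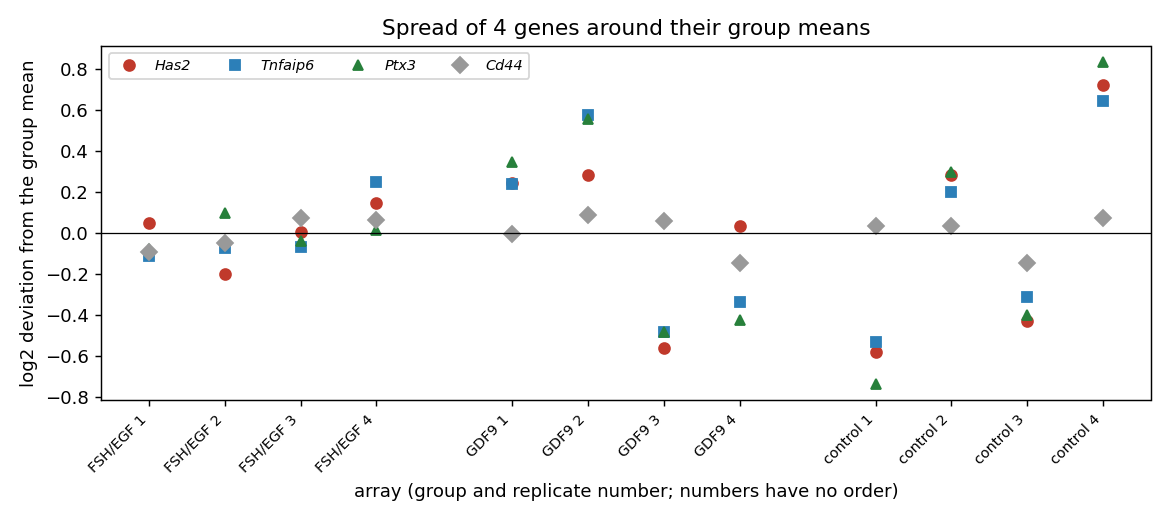
Log2 deviation from the group mean (vertical axis) of Has2, Tnfaip6, Ptx3 and Cd44 on each of the 12 arrays (horizontal axis, by group and replicate number). On 7 of the 8 GDF9 and control arrays Has2, Tnfaip6 and Ptx3 deviate to the same side, and on GDF9 array 4 Has2 is at 0.03 while Tnfaip6 is at -0.33 and Ptx3 at -0.42. Values run from -0.74 for Ptx3 on control array 1 to 0.84 for Ptx3 on control array 4, and Cd44 stays within 0.15 of 0.

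Over the 8 GDF9 and control arrays, deviations from group means of Tnfaip6 and Ptx3 correlated at Pearson's r = 0.99 (Spearman's rho = 1). For Has2 the correlation was 0.93 with Ptx3 (rho = 0.952) and 0.919 with Tnfaip6 (rho = 0.952). These were the only 3 of 45 member pairs above 0.9. Leaving out the 2 arrays farthest from the median of the first gene gave r = 0.99, 0.887 and 0.851. The values are given as a description over 8 arrays of 1 experiment.

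Cd44 correlated with that trio at r = 0.295 against Has2, 0.488 against Tnfaip6 and 0.492 against Ptx3 (rho = 0.5, 0.476 and 0.476). Without the 2 farthest arrays these were 0.824, 0.124 and 0.613, so the values for Cd44 depend on which arrays are kept. Vcan was at 0.569 against Has2 and 0.786 against Hmmr (0.366 and 0.512 without the 2 farthest arrays). Has1 ran against the trio (r = -0.783 with Has2) and against Vcan (-0.894), and with Itih3 (0.831). Without the 2 arrays farthest for Has2, r of Has1 with Has2 was -0.597. Without the 2 farthest for Has1, it was -0.649 with Vcan and 0.916 with Itih3.

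**Figure D4:**
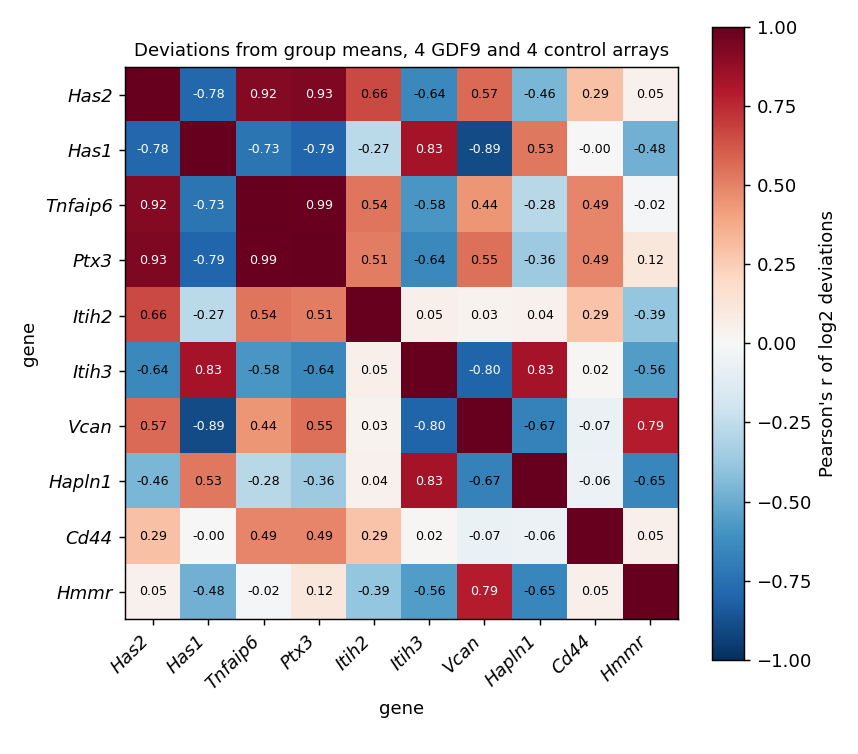
Pearson's r of log2 deviations from group means for all 45 pairs of members (rows and columns, colour scale from -1 to 1), over 4 GDF9 and 4 control arrays. Has2, Tnfaip6 and Ptx3 form a block above 0.9, and Has1 and Vcan are the most opposed pair at -0.89.

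Values that move beside this pattern can be read on the same arrays. Control array 4, where the trio was highest, had the highest oocyte marker mean, and control array 1, where it was lowest, had the lowest array weight. The oocyte marker means on control arrays 1 to 4 were 5.05, 4.90, 4.93 and 6.10. Over the arrays of all groups, FSH/EGF included, deviations of Has2 correlated with those of the oocyte genes Bmp15 (r = 0.702) and Gdf9 (0.565). Among 18616 genes these ranked 812 and 2262 by closeness to Has2. The part of oocyte transcripts and of array weight in the spread was not tested. Without control arrays 1 and 4, 7 of 10 members were past the threshold for FSH/EGF minus control, and Has2 was at 2.95.

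Among 18616 other named genes, those with deviations closest to Has2 over all 12 arrays were Mid2 (r = 0.965), Crim1 (0.956), Fam110c (0.943), Pigo (0.942) and Prkd1 (0.941). Tnfaip6 ranked 19th at 0.904 and Ptx3 24th at 0.898. By level rather than deviation, over the same 12 arrays, the gene most like Has2 was Ptx3 (r = 0.989), then Clcn5 (0.989), Cab39 and Ppp2r5b (0.987 each) and Tfrc (0.986).

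For Hmmr the closest genes by level were Vbp1 (r = 0.975), Hikeshi (0.974), Septin7 (0.969), Uggt2 (0.966) and Timm17a (0.961). By deviation they were Hikeshi (0.942), Ccnh (0.941), Ints10 (0.939), Cox15 (0.936) and Cnpy2 (0.935). None of these 9 genes is in the list of mitosis genes used here, but only the 5 closest of 18616 were taken each time. In each group the array lowest for Hmmr also had the lowest mean of the 17 measured mitosis genes. These were control array 1 (7.42), GDF9 array 2 (7.63) and FSH/EGF array 4 (7.72). The correlation of Hmmr with that list was not computed.

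Promoter windows are shown for Tnfaip6 and Ptx3, which moved most closely together, and for Has1 and Itih2, which did not rise and hold letters of a cAMP response element or AP-1 site. RefSeq sequences of build GRCm38.p6 were matched for 9 of 10 members, all but Has2. Each line gives the 250 bases before the start, 5′ to 3′ on the gene's strand. Capitals mark matches to the exact letters searched for CRE, its half-site, AP-1, C/EBP or TATA box.
Tnfaip6 (chr2:52037863-52038112, plus strand): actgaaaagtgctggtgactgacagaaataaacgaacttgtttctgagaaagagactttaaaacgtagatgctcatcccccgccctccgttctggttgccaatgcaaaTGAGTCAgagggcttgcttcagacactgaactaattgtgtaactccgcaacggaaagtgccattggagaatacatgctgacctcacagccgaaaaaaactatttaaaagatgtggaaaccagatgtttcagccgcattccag
Ptx3 (chr3:66219637-66219886, plus strand): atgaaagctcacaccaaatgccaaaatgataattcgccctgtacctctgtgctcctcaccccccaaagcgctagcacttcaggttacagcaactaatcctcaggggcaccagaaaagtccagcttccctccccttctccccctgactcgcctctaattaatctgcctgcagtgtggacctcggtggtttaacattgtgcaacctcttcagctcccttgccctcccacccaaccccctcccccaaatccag
Has1 (chr17:17855189-17855438, minus strand): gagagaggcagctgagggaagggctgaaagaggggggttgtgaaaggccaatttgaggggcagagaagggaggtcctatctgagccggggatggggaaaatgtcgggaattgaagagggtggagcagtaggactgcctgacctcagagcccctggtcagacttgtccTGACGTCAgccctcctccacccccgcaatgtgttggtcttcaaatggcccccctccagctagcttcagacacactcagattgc
Itih2 (chr2:10130684-10130933, minus strand): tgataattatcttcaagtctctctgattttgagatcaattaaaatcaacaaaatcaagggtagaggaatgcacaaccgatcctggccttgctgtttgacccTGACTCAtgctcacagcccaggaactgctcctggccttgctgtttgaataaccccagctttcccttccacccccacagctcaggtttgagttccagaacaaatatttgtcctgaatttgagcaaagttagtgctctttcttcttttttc

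The windows searched ran from 250 bases before to 50 bases after the start, on both strands. The cAMP response element TGACGTCA was found in Has1 alone among the 9 members, first base at -83 from the start, and in 1.79% of 32851 windows of mouse genes. Its half-site TGACG, which lies within it on both strands, was found also in Hapln1, at base 29 after the start, and in 20.8% of all windows. The AP-1 letters TGANTCA were found in Tnfaip6, first base at -142, and in Itih2, at -149, and in 7.81% of all windows.

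Ptx3 held no match to the exact letters of any of the 8 motifs. Besides those above, these were the GC box GGGCGG (35.7% of all windows), the SMAD letters CAGAC (49.6%), the E-box CACGTG (7.15%), C/EBP TTGCNNCAA (2.08%) and the TATA box TATAAA (13.6%). CAGAC stood once in Tnfaip6, Itih2 and Hapln1, 2 times in Has1 and 4 times in Itih3. Of the letters searched, the risers Vcan, Cd44 and Hmmr held only GC boxes, 2 in Vcan and 1 each in the others. Other letters or spacings of a site, such as shorter forms of the C/EBP site, were not searched. The lack of a match in Ptx3 therefore does not mean that it lacks such a site. A match describes letters in this window and nothing more.

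Of 8 other measured genes of hyaluronan synthesis and breakdown, 1 rose and 2 fell with FSH/EGF. Of all rows 29.0% passed, 16.5% higher and 12.5% lower. Cemip2, a cell surface protein linked to hyaluronan breakdown, rose by 1.00 ± 0.09 (limma adjusted p = 4.1e-06). The hyaluronidase genes Hyal2 and Hyal3 fell by 0.31 and 0.23, and the third synthase, Has3, was at -0.00 ± 0.10 (limma adjusted p = 0.986).

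Among 6 further genes of proteins that bind or sense hyaluronan, Tlr2, an innate immune receptor, rose by 2.85 ± 0.09 and Layn, which encodes layilin, fell by 1.01 ± 0.15. In the family of link proteins, lecticans and inter-alpha-inhibitor chains, 0 of 12 rose and 4 fell, against 16.5% and 12.5% of all rows. Itih5, a heavy chain relative made in tissues outside the liver, averaged 5.13 with FSH/EGF, 8.43 with GDF9 and 8.69 in controls. It fell by 3.56 ± 0.17 (0.085 of control; limma adjusted p = 9.74e-09), far more than the member Itih2. The other fallers were Habp4 (-0.40), Ncan (-0.35) and Ambp (-0.34).

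Of 5 pentraxin genes besides Ptx3, Nptx1 rose by 2.39 ± 0.15 (limma adjusted p = 1.41e-07) and Ptx4 fell by 0.28. Crp and Apcs, the short pentraxins of plasma, were at -0.11 and -0.17 and did not pass. Versican-cleaving proteases split: Adamts1, whose product cuts versican in the ovulating follicle, rose by 2.11 ± 0.24, whereas Adamts5 fell by 2.94 ± 0.32. The inhibitor gene Timp3 rose by 1.76 ± 0.19, so that 2 of 7 in that list rose and 1 fell. Over all rows 16.5% were higher and 12.5% lower.

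Enzymes that supply the polymer's sugars moved 1 way. Of 7 genes of UDP-sugar precursors 6 rose, 0 fell and Gnpnat1 did not pass (0.45 ± 0.21). Ugdh, which makes the UDP-glucuronate for hyaluronan, rose by 2.76 ± 0.14 (limma adjusted p = 1.36e-08) and Gfpt2, at the entry to hexosamine synthesis, by 1.84 ± 0.08. Pgm3 rose by 1.34 and Uap1 by 1.19. The list's median difference was 1.19, against -0.06 over all rows, of which 16.5% rose and 12.5% fell.

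Chondroitin sulfate chains decorate versican, and 9 of 17 genes for making them rose while 3 fell, against 16.5% and 12.5% of all rows. Chst15, a sulfotransferase, rose by 3.31 ± 0.18 (limma adjusted p = 3.46e-08), the synthase gene Chsy3 by 2.45 ± 0.14, the epimerase gene Dse by 2.41 and the sulfotransferase gene Chst11 by 1.83. The fallers Xylt2, Chst13 and Chst3 lay between -0.34 and -0.31. The list's median was 0.30.

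Signals upstream of expansion had 5 risers and 4 fallers among 12 measured genes, where 16.5% of all rows rose and 12.5% fell. The EGF-like ligand Btc rose by 5.08 ± 0.09, Ptgs2 by 4.83 ± 0.34 and the ligand Ereg by 4.37 ± 0.23, while Fshr fell by 3.14 ± 0.09. In the mitosis list, set beside Hmmr, 6 of 17 genes rose and 2 fell, with a median of 0.20. Prc1, a spindle midzone protein gene, rose by 0.86 ± 0.16 (limma adjusted p = 0.00124), Cenpe by 0.62 and Tpx2 by 0.61, and Ccnb2, cyclin B2, fell by 0.66 ± 0.11.

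**Figure D5:**
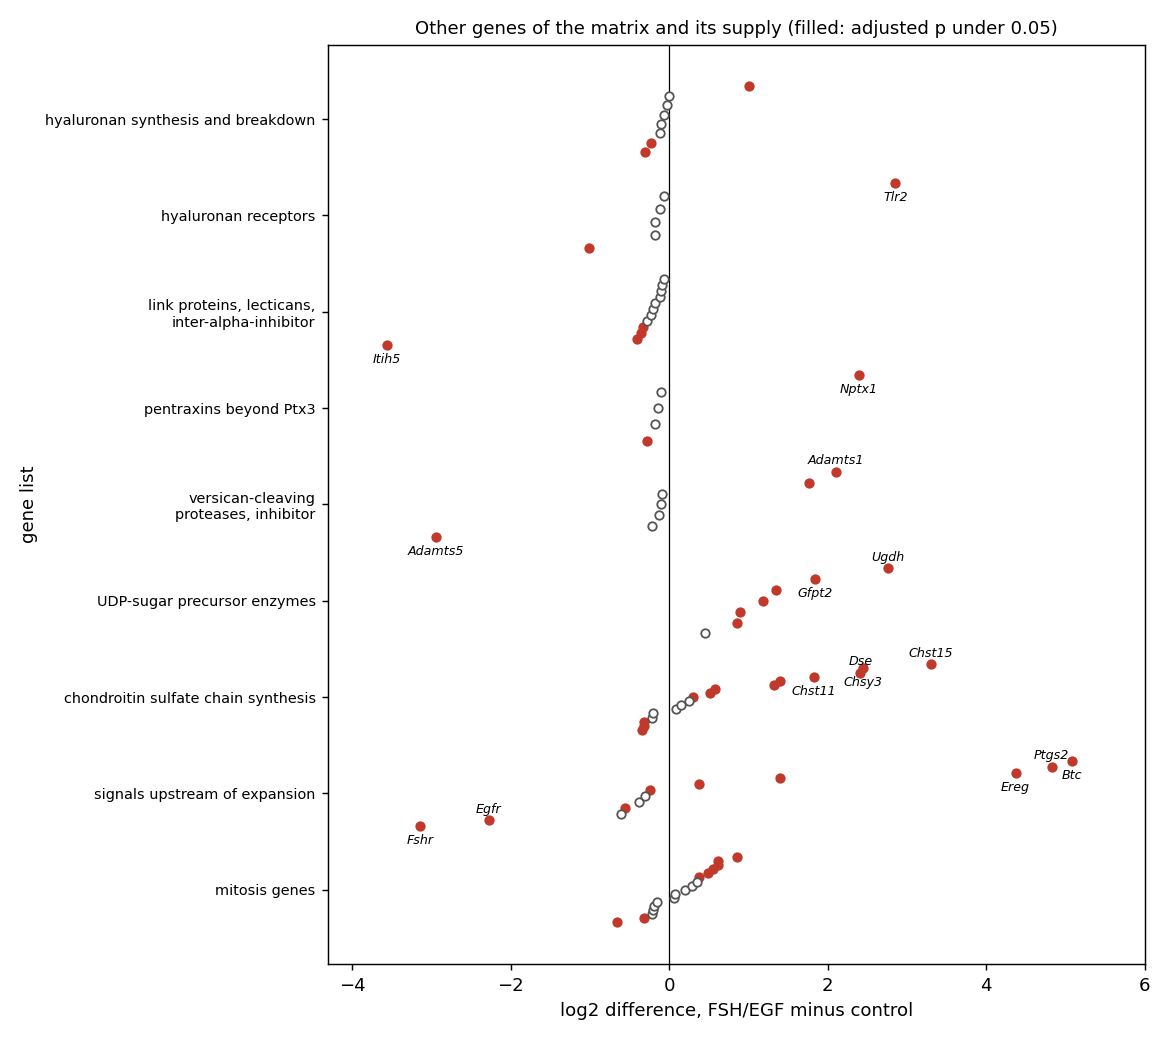
Log2 differences of FSH/EGF minus control (horizontal axis) for the measured genes of 9 lists (rows); filled points passed an adjusted p of 0.05. Chst15 and Ugdh lie at 3.31 and 2.76, and Itih5 lies farthest below 0 at -3.56.

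With GDF9, 0 genes of these 9 lists passed limma's threshold against control, as for all rows, and the genes named above from these lists had overlapping arrays. The sulfotransferase gene Chst11 was at 0.40 ± 0.11 (unadjusted p = 0.00311; limma adjusted p = 0.971) and Chst15 at 0.30 ± 0.18, while Chsy3 and Dse were at -0.12 and -0.01. Ptgs2 was at 0.91 ± 0.34 and Adamts5 at -0.78 ± 0.32. Btc, Ereg and Fshr were at 0.13, 0.01 and 0.07.

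Of the inter-alpha-inhibitor family under GDF9, Itih5 was at -0.26 ± 0.17, Ambp at -0.17, Ncan at -0.10 and Habp4 at 0.14. Tlr2 was at -0.21 ± 0.09 and Layn at 0.14, Cemip2 at 0.09, Hyal2 at 0.01 and Hyal3 at -0.03. Nptx1 was at 0.17, Ptx4 at 0.01, Adamts1 at -0.02 and Timp3 at 0.01. The 7 sugar precursor genes had positive differences, from 0.03 for Ugdh to 0.25 for Ugp2, with Gfpt2 at 0.10, Pgm3 at 0.21 and Uap1 at 0.11. Prc1 was at 0.21, Tpx2 at 0.18, Cenpe at 0.11 and Ccnb2 at -0.04. None of these differences passed the threshold.

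Markers of other cells moved in both directions with FSH/EGF, where 16.5% of all rows rose and 12.5% fell. Of 9 endothelial markers 2 rose, Cdh5 by 3.18 and Tek by 0.29, and 1 fell, Egfl7 by 0.31. The other 6 did not pass, and the list's median difference was -0.03. The list's mean was 5.41 to 5.47 with FSH/EGF, 5.02 to 5.24 with GDF9 and 5.07 to 5.24 in controls. Of 8 surface epithelium markers 3 rose, Krt8 by 3.02, Krt18 by 2.72 and Epcam by 0.36, and 1 fell, Muc16 by 0.21. The other 4 did not pass, and that list's median was -0.15 (means 5.99 to 6.14, 5.25 to 5.53 and 5.33 to 5.55). Of 9 leukocyte markers 1 rose, Cd68 by 0.50 (means 4.88 to 4.96, 4.86 to 5.11 and 4.94 to 5.11). Of 10 theca and stroma markers 1 rose and 3 fell (means 5.58 to 5.65, 5.73 to 5.95 and 5.83 to 5.99). The part of other cells in the matrix genes' differences was not tested.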

How the data were processed

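Values in the deposited table were log2 expression per probe set, between 2.92 and 14.3, which the authors had normalized. The submitters' processing notes list RMA, Partek and GCOS, without version or role. The genome build is not given in the sources used here. All 35399 rows were tested, of which 21789 had 1 gene symbol. Each gene was taken from its probe set with the highest mean.

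Groups were compared with limma (version 3.58.1, R 4.3.3): a mean for each group was fitted to all 12 arrays with moderated variances. P-values were adjusted over all rows by Benjamini-Hochberg, with a threshold of 0.05. The model was tested on simulated data. The members and gene lists were chosen with earlier results of these data known. All members are named. Of each list up to 4 genes past the threshold are named by size of FSH/EGF minus control, or the one with the smallest p. Others are named where a result touches them, after their values were seen. These are Has3, Gnpnat1, Crp, Apcs, Fshr and Inhba in the opening, the chondroitin fallers, Bmp15 and Gdf9 beside Has2, and Chst11, Adamts5, Itih5 and Ugp2 under GDF9. Precision is limited by the number of arrays. Planned comparisons of protein sequences were not made.

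Replicate numbers were not used to pair the arrays. Same-numbered arrays of different groups had correlations of deviations from -0.389 to 0.221 in 12 pairs, 6 of them above 0.1. Such correlations cannot exclude that the arrays were paired. Alternatives were a variance trend, robust moderation, only the groups compared, array weights, no dim rows (the lowest 40%), renewed quantile normalization, equal medians, means over probe sets, a replicate block, each array left out, and 2 sets of arrays left out. A weight per group was added after seeing the data.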

Additional observations from a re-analysis of the deposited data

Results flagged for a closer look

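Among 30 sets of 4 arrays (10 members in 3 groups), 2 held an array far from the other 3, where chance gives about 1 in 20. Tnfaip6 stood at 11.13 on FSH/EGF array 4, with the other FSH/EGF arrays between 10.76 and 10.81. Itih3 stood at 4.85 on FSH/EGF array 1, with the others between 5.05 and 5.09.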

How the results depend on the processing

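The count of members past the threshold against control stayed at 7 with each array left out in turn for FSH/EGF, and at 0 for GDF9. For FSH/EGF minus GDF9 it ran from 5 to 7. The rises of Has2, Tnfaip6, Ptx3, Vcan and Cd44 against control kept their direction and call in all 120 values over 24 alternatives. Without the dimmest 40% of rows Itih2 and Hapln1 were not tested, and 6 members passed for FSH/EGF minus control, as did 44.2% of the 21239 rows kept. With control arrays 1 and 4 and FSH/EGF array 3 left out together, 5 passed, without Itih2 and Hmmr. With each array left out, counts over all rows ran from 8139 to 10801 for FSH/EGF minus control, from 0 to 1 for GDF9 minus control (1 without GDF9 array 3) and from 6679 to 9269 for FSH/EGF minus GDF9. Equal array medians moved the share of higher calls for FSH/EGF minus control to 71.9%, against 57% as deposited. The replicate block gave 9600 rows for FSH/EGF minus control and changed no member's call. A member's low signal limits what can be seen, above all for Hapln1, and signal over background was not analysed here.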

Other observations

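The log2 ratio of Tnfaip6 to Ptx3 within an array was chosen for mention after its values were seen. It ran from -0.93 to -0.74 on GDF9 arrays and from -0.61 to -0.21 on control arrays, without overlap, a difference of -0.41. On FSH/EGF arrays it ran from -1.03 to -0.63. Of the 45 ratios between members, this was the only 1 in which GDF9 and control arrays did not overlap. Among the levels of all rows 1.98% did not, but levels of single rows are not ratios of pairs. The share over other ratios was not computed, so how rare 1 of 45 is remains unknown.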
